A study of Mus musculus with 8 samples.

Results

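The 10 genes described here belong to the Hippo pathway or are known targets of its effector YAP. They were taken by symbol from the 35638 genes of the deposited table, and all 10 were found: Yap1, Wwtr1, Tead1, Lats1, Lats2, Ctgf, Cyr61, Ankrd1, Amotl2 and Axl. RNA sequencing of frozen mouse liver at postnatal day 90 gave 8 libraries, all on a mixed background of C57/B6 and 129. The 4 control libraries (WT) carried Arid1a Fl/Fl, that is floxed alleles of Arid1a with no Cre named, and the 4 knockout libraries (KO) carried Arid1a Fl/Fl with Alb-cre, a transgene in which the albumin promoter drives Cre recombinase in hepatocytes. Arid1a encodes a subunit of SWI/SNF, a complex that remodels chromatin, and the floxed alleles were common to both groups. The transgene is also known to act in bile duct cells, which share precursors with hepatocytes, whereas endothelial cells, stellate cells and macrophages are not its targets. The deposited values do not separate Arid1a by cell type. The labels do not say whether the 4 libraries of a group came from separate animals. The p-values therefore measure only how far these samples spread, and that spread may be technical.

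In the Hippo pathway, the kinases encoded by Stk3 and Stk4 activate the kinases encoded by Lats1 and Lats2, which phosphorylate the coactivators YAP (Yap1) and TAZ (Wwtr1) and keep them out of the nucleus. Unphosphorylated YAP and TAZ enter the nucleus, bind TEAD transcription factors such as the product of Tead1 and switch on genes such as Ctgf, Cyr61, Ankrd1, Amotl2 and Axl. In the liver the pathway limits organ size, and YAP activity is known to be higher in bile duct cells than in hepatocytes.

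Levels are in FPKM, a unit that corrects for the length of a gene and the size of a library, and can be compared between genes. Values of single libraries are listed in the order of their replicate numbers, 1 to 4. Estimates of depth from the steps between low values ran from 12420000 to 13600000 reads in WT and from 13720000 to 15220000 in KO. A whole number of reads, within 0.1, was met by 54.4 to 58.5% of low values at these depths (20% by chance), so they are approximate. Arid1a measured 5.16, 8.38, 3.998 and 4.10 FPKM across the WT libraries and 2.70, 2.86, 3.46 and 2.59 FPKM across the KO libraries, without overlap between the groups (limma adjusted p = 0.316). The summed level of 10 hepatocyte markers such as Alb and Ttr was 32674 to 45010 FPKM in WT and 35354 to 52375 FPKM in KO, so the defining genes of the labelled tissue were abundant in every library. Xist was at 53.5 to 95.6 FPKM in WT and 61.4 to 93.3 FPKM in KO, so no library stood apart in this transcript of the inactive X chromosome. Among 9 bile duct markers, Krt7, Krt19, Epcam, Cftr and Tspan8 were listed at 0 in all 4 WT libraries, each was above 0 in at most 2 KO libraries, and the summed level of the list was 1.61 to 1.90 FPKM in WT and 1.41 to 2.28 FPKM in KO.

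The promoters of the coactivator genes and of the targets whose groups did not overlap are printed here because TEAD factors bind the letters GGAATG, and the pathway's genes are known to feed back on each other through them. Each window runs from 250 bases before to 50 bases after a transcription start in RefSeq (GRCm38.p6, 300 bases), 5′ to 3′ on the strand of the gene, and capitals mark GGAATG or its reverse complement CATTCC.
Yap1, chr9:8004547-8004846, minus strand: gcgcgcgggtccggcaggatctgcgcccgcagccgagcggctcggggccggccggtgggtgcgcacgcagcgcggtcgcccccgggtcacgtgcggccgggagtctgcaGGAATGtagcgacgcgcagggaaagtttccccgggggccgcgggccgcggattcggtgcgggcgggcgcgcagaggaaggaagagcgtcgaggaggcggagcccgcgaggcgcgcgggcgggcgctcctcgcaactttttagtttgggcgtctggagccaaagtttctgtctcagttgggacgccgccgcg
Wwtr1, chr3:57575861-57576160, minus strand: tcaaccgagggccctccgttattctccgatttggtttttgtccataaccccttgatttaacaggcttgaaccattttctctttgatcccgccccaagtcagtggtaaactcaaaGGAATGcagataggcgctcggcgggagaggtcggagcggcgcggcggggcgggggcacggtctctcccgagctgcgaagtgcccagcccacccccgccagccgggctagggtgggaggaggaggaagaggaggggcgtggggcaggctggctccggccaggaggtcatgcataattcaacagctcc
Cyr61 (Ccn1 in RefSeq), chr3:145649936-145650235, minus strand: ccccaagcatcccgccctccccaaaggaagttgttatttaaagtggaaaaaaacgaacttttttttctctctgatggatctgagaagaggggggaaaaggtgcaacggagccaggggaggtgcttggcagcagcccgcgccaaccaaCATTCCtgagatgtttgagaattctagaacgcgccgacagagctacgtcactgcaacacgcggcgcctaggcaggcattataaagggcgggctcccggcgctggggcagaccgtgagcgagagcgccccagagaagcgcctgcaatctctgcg
Axl, chr7:25788684-25788983, minus strand: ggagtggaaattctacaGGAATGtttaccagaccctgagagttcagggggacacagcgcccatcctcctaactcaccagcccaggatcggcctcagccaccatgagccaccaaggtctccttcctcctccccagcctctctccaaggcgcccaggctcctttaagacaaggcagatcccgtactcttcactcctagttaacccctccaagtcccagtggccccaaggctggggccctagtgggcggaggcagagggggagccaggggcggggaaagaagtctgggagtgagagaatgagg

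RefSeq windows were found for 8 of the 10 genes. In 7 of these 8 genes, at least 1 window held GGAATG on either strand. Counted by window, 8 of 10 held it, against 14.7% of all 32851 windows of that length. The 2 windows of Wwtr1 overlap and hold the same match. The match began 141 bases before the start in Yap1, 136 in Wwtr1, 103 in Cyr61 (on the opposite strand), 233 in Axl and 65 in Amotl2 (also on the opposite strand). Ankrd1 held 2 matches, at 210 and 123 bases before its start. Lats2 held 1 match, 4 bases after a start, and none in its other window. Lats1 was the gene without a match in its window. The genes were chosen as parts or targets of the TEAD pathway, so both counts describe the choice. None of the 10 windows of these 8 genes held the AP-1 letters TGANTCA (7.81% of all windows) or a CArG box, the motif bound by SRF (1.63%). A match of letters is a description and does not show that a factor was bound in these livers.

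No gene of the 10 passed the test over all genes, while 3 had groups that did not overlap: Wwtr1 and Axl were higher in every KO library, and Cyr61 was lower in every KO library. The groups were compared with limma on log2(FPKM + 1) for the 11266 genes with a mean of at least 1 FPKM, and a gene was called at a Benjamini-Hochberg adjusted p under 0.05. Of the 10 genes 6 reached that mean, and of these 0 were called, against 0.763% of all tested genes. An unadjusted limma p under 0.05 was found for 3 of the 6 (Axl and Wwtr1 higher, Cyr61 lower), against 9.81% of all tested genes, 4.99% higher and 4.82% lower. The same 3 had groups without overlap, against 6.23% of all tested genes, 3.05% above and 3.18% below. Axl reached the minimum only through KO, so both counts partly follow from the minimum. With no minimum, 2 of the 10 genes lay above every WT library in every KO library and 1 below. Over the 27571 genes above 0 in any library, 3.57% lay above. Tead1, Lats2, Ctgf and Ankrd1 were under the minimum. With no minimum, 0 of the 10 genes were called by limma, against 0.21% of 27571 genes. A missed threshold does not show that levels were equal.

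**Figure D1:**
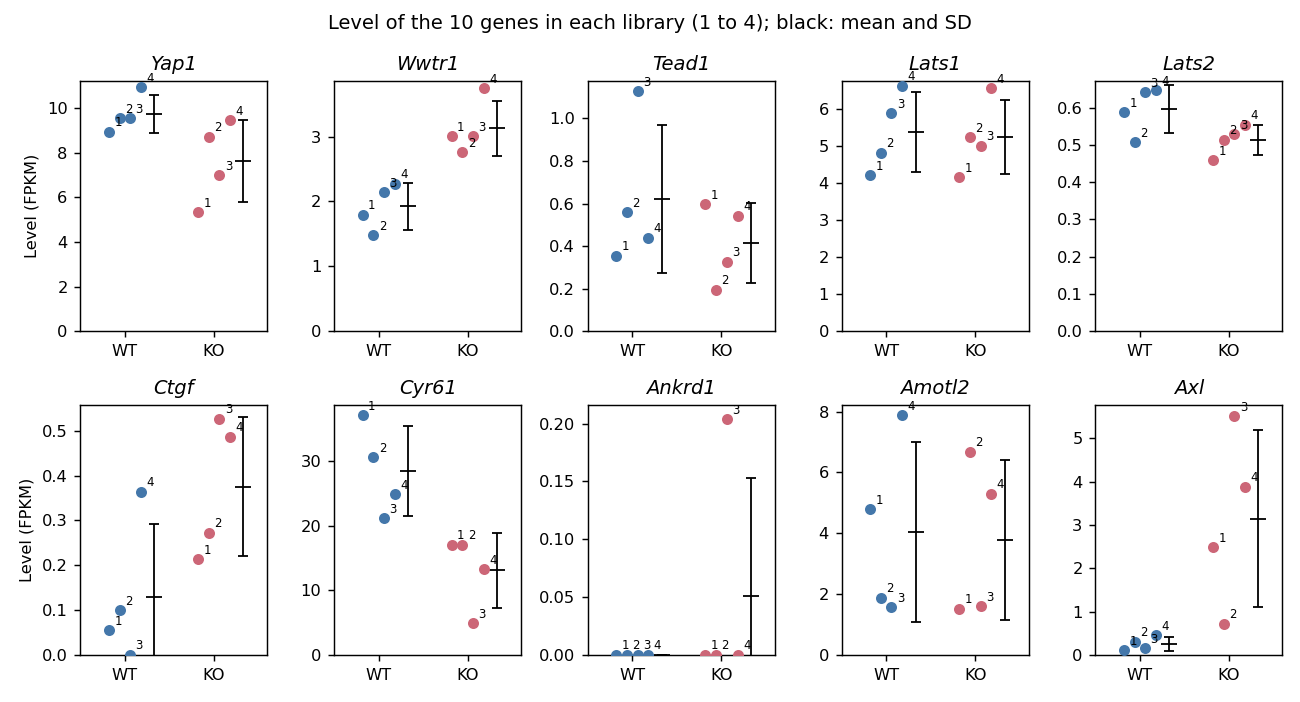
Level of each of the 10 genes in FPKM (vertical axis, starting at 0) in the 4 WT and 4 KO libraries, numbered 1 to 4, with the mean and SD in black (SD bars are clipped at 0). Wwtr1 and Axl lay higher and Cyr61 lower in every KO library, Yap1 overlapped narrowly, and Amotl2 split both groups alike.

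The coactivator genes lay on opposite sides of their WT levels, Yap1 with overlap between the groups and Wwtr1 without. Yap1 (ENSMUSG00000053110, chromosome 9, 7931999 to 8004596, GRCm38) measured 8.94, 9.53, 9.54 and 10.9 FPKM across the WT libraries and 5.33, 8.71, 6.998 and 9.45 FPKM across the KO libraries. The groups overlapped through KO 4, which lay above WT 1, while the other KO libraries lay below every WT library. The means were 9.74 ± 0.842 and 7.62 ± 1.84 FPKM (SD, n = 4 each), a log2 difference of FPKM + 1 of -0.34 with a 95% interval from -0.78 to 0.10 (limma adjusted p = 0.647). Gm20416, a noncoding gene on the opposite strand with a mean of 1.61 FPKM, overlaps the Yap1 locus, and the use of strand in counting is not given in the sources used here.

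Wwtr1, the gene of TAZ (ENSMUSG00000027803, chromosome 3, 57455649 to 57575910), measured 1.80, 1.48, 2.15 and 2.27 FPKM across the WT libraries and 3.01, 2.76, 3.01 and 3.74 FPKM across the KO libraries. Every KO library lay above every WT library, and the lowest KO value, in KO 2, was 2.76 FPKM against a highest WT value of 2.27 FPKM. The means were 1.92 ± 0.357 and 3.13 ± 0.424 FPKM (SD, n = 4 each), a log2 difference of 0.50 with a 95% interval from 0.12 to 0.88 (limma adjusted p = 0.324). An exact two-sided permutation test over the 70 splits of 8 libraries gave p = 0.0286, the smallest it can give. Groups without overlap, found for 6.23% of all tested genes, always give this value, so it restates the lack of overlap. This exact permutation test was run for each of the 10 genes and gave p = 0.0286 also for Axl and Cyr61 and p = 0.0571 for Yap1.

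The ratio of the coactivator transcripts had groups without overlap, as Wwtr1 alone did. It restates the opposite differences of both genes given above, and the share of other gene pairs that separate the groups was not computed. The ratio of Yap1 to Wwtr1 FPKM, chosen after the values were seen and given without a test, was 4.98, 6.43, 4.45 and 4.81 across the WT libraries and 1.77, 3.15, 2.33 and 2.53 across the KO libraries. The groups did not overlap, the mean being 5.17 ± 0.871 over the WT and 2.44 ± 0.569 over the KO libraries (SD, n = 4 each). A ratio within a library does not depend on the scaling between libraries. The sum of both genes was 10.7 to 13.2 FPKM in WT and 8.34 to 13.2 FPKM in KO, so the groups overlapped in their total.

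**Figure D2:**
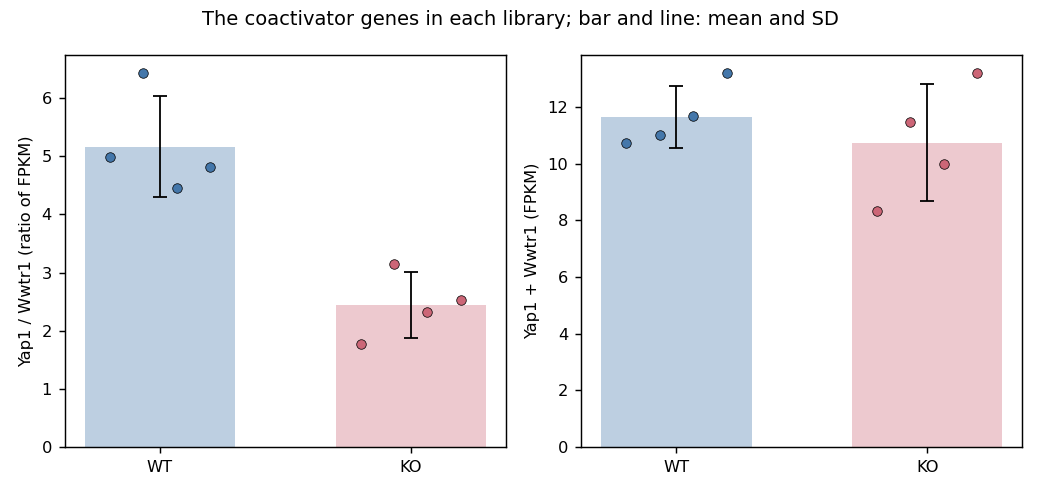
Left, ratio of Yap1 to Wwtr1 FPKM, and right, the sum of both in FPKM, in each library (points) with the group mean (bar, from 0) and SD (line). The ratio was 4.45 to 6.43 in WT and 1.77 to 3.15 in KO, whereas the sums overlapped.

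As for Wwtr1, the summed levels of endothelial and of stellate cell markers were higher in each KO library than in any WT library. Over all 12 endothelial markers, with no minimum, the KO mean was the higher one for 12, and 8 lay above every WT library in every KO library, against 3.57% of the 27571 genes above 0 in any library. With the minimum 8 were tested, 6 of which reached it only through KO, and 0 were called by limma. The summed level of the 12 was 3.48 to 10.1 FPKM in WT and 16.7 to 34.2 FPKM in KO. The 12 stellate and fibroblast markers summed to 2.54 to 6.84 FPKM in WT and 13.7 to 26.8 FPKM in KO. Of these markers, 9 lay above every WT library in every KO library, against the same 3.57% of genes. With the minimum 3 were tested, 1 of which reached it only through KO, and 0 were called by limma. Dcn, with means of 2.33 FPKM in WT and 9.32 FPKM in KO, was the largest part of the sum. Vwf was listed at 0 in all 4 WT libraries, and Acta2 was at or near 0 in every library. Wwtr1 amounted to 22.4 to 51.6% of the endothelial sum in WT and to 8.79 to 17.3% in KO. In bulk tissue, a change in the number of cells of a type and a change in RNA per cell cannot be told apart, and the part of these cells in the level of Wwtr1 was not tested.

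Here and below, nearest genes were sought by distance between standardised levels, leaving out symbols that start with Gm or end in Rik. Over the 8 libraries, the remaining tested gene most like Wwtr1 was Rsad2, an antiviral gene of the interferon response (root mean square distance 0.202). Next came Ptprj, a receptor phosphatase gene (0.257), and Bmi1, a Polycomb gene (0.266). The mean of Ptprj was 7.26 FPKM for WT against 11.3 FPKM for KO, and that of Bmi1 1.55 against 3.73 FPKM. The genes most like Yap1 were Syf2, a splicing factor gene (0.232), Lsm14b (0.240) and Cdo1, the cysteine dioxygenase gene (0.273). The mean of Cdo1 was 360.5 FPKM for WT against 282 FPKM for KO. None of these 6 genes was called by limma (adjusted p of 0.115 to 0.761).

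The groups overlapped for both kinase genes, Lats1 and Lats2. Lats1 (ENSMUSG00000040021, chromosome 10, 7681214 to 7716460) measured 4.21, 4.82, 5.89 and 6.63 FPKM across the WT libraries and 4.16, 5.24, 5.01 and 6.56 FPKM across the KO libraries. The ranges nearly coincided, and the log2 difference was -0.03 with a 95% interval from -0.47 to 0.40 (limma adjusted p = 0.986). Lats2 (chromosome 14, 57689662 to 57758388) was far lower, at 0.588, 0.507, 0.642 and 0.647 FPKM across the WT libraries and at 0.459, 0.514, 0.528 and 0.554 FPKM across the KO libraries. The means were 0.596 ± 0.0654 and 0.514 ± 0.0399 FPKM (SD, n = 4 each), and the groups overlapped through WT 2 (exact permutation p = 0.114, two-sided). Lats1 exceeded Lats2 in every library, by 7.16 to 10.2 times in WT and 9.05 to 11.8 times in KO. Gm20430, a pseudogene on the opposite strand with a mean of 1.67 FPKM, overlaps the Lats2 locus. So does Gm49361, a protein-coding gene of the annotation on the same strand, which has no entry of its own among the deposited values.

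Tead1, which encodes the DNA-binding partner of YAP and TAZ (chromosome 7, 112679318 to 112906807), measured 0.356, 0.560, 1.13 and 0.439 FPKM across the WT libraries and 0.598, 0.195, 0.327 and 0.544 FPKM across the KO libraries. WT 3 was the highest and KO 2 the lowest, and the groups overlapped (exact permutation p = 0.371, two-sided). The other TEAD genes set the context for this level. Tead3 averaged 1.54 ± 0.242 FPKM over WT and 1.66 ± 0.0430 FPKM over KO (SD, n = 4 each), above the means of Tead1 in both groups. Tead2 was at most 0.0443 FPKM and Tead4 at most 0.122 FPKM in any library. Vgll4, whose product competes with YAP for TEAD, ranged from 3.13 to 14.4 FPKM in WT and from 5.14 to 14.2 FPKM in KO (limma adjusted p = 0.926).

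Among the targets, the paralogous matricellular genes Cyr61 and Ctgf differed widely in level. Cyr61, also named Ccn1 (ENSMUSG00000028195, chromosome 3, 145646976 to 145649981), was the most abundant of the 10 genes in every WT library, at 37.2, 30.6, 21.2 and 24.9 FPKM across the WT libraries. It was at 17.1, 17.1, 4.90 and 13.3 FPKM across the KO libraries. All KO libraries were below all WT libraries, and KO 3 was the lowest, under the level of Yap1 in the same library. The means were 28.5 ± 6.97 and 13.1 ± 5.74 FPKM (SD, n = 4 each), a log2 difference of -1.16 with a 95% interval from -1.97 to -0.36 (limma adjusted p = 0.255). The tested genes most like Cyr61 over the libraries, a search added after its values were seen, were Notumos, Eci3 and Lsr (distances 0.222, 0.241 and 0.343).

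Immediate early genes, which respond to stimuli and tissue handling within minutes and of which Cyr61 is one by textbook classification, mostly had negative differences in the same comparison. Of 12 on the list 11 were tested, 10 of them with a negative and 1 with a positive difference, where 45.5% of all tested genes were positive. The median was -0.61, 0 were called by limma, and 5 had a lower level at an unadjusted p under 0.05, against 4.82% of all tested genes. Ier2 lay lower in every KO library, at 56.4 to 83.4 FPKM in WT and 34.7 to 49.5 FPKM in KO, and Fos overlapped, at 30.2 to 55.7 and 15.7 to 47.6 FPKM. The list summed to 459 to 715 FPKM in WT and 346 to 473 FPKM in KO, with KO 4 above WT 3. KO 3 was lowest in that sum as in Cyr61. Cyr61 amounted to 4.28 to 6.03% of the sum in WT and to 4.26, 4.56, 1.42 and 2.81% across the KO libraries, and the part of handling in its level was not tested.

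Ctgf, also named Ccn2 (chromosome 10, 24595442 to 24598683), was nearly silent by comparison, at 0.0553, 0.09997 and 0 FPKM in WT 1 to WT 3, 0.364 FPKM in WT 4, and 0.213, 0.273, 0.527 and 0.487 FPKM across the KO libraries. WT 4 lay within the KO range and the other WT libraries below it (exact permutation p = 0.0857, two-sided). At the estimated depths and an exon length of 2861 nt, 1 read was worth 0.0230 to 0.0281 FPKM of Ctgf, so the values rest on about 0 to 20.7 reads. Gm15270, a noncoding gene on the opposite strand, overlaps Ctgf. Ankrd1, a muscle ankyrin repeat gene widely used as a YAP readout in cultured cells (chromosome 19, 36111961 to 36120099), was listed at 0 in 7 libraries and at 0.204 FPKM, about 8.1 reads, in KO 3. It gives no comparison at this depth.

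Amotl2, an angiomotin family gene whose product binds YAP at junctions (ENSMUSG00000032531, chromosome 9, 102716672 to 102733418), varied within both groups far more than between them. It measured 4.80, 1.88, 1.57 and 7.89 FPKM across the WT libraries and 1.52, 6.69, 1.59 and 5.31 FPKM across the KO libraries. In each group 2 libraries lay at 4.80 FPKM or more and 2 at 1.88 FPKM or less. The log2 difference was -0.07 with a 95% interval from -1.18 to 1.04 (limma adjusted p = 0.987). Other genes split the libraries alike, in a search added after the values were seen: Ppp2r2d, a phosphatase subunit gene, measured 5.67, 1.90, 1.24 and 8.39 FPKM across the WT libraries and 1.79, 8.21, 1.496 and 5.505 FPKM across the KO libraries. Abcd2, a peroxisomal transporter gene, and Exoc7, an exocyst gene, were also among the 3 genes nearest to Amotl2 (distances 0.126, 0.169 and 0.208 in the order named).

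Axl, a receptor tyrosine kinase gene (ENSMUSG00000002602, chromosome 7, 25757273 to 25788705), had the greatest ratio of group means among the 6 tested genes. It measured 0.111, 0.304, 0.155 and 0.456 FPKM across the WT libraries and 2.48, 0.721, 5.501 and 3.88 FPKM across the KO libraries. Every KO library lay above every WT library, with KO 2 much nearer to WT than the other KO libraries. The means were 0.256 ± 0.157 and 3.15 ± 2.03 FPKM (SD, n = 4 each), 12.3 times apart, and the gene reached the minimum for testing through KO. At the estimated depths, the WT values rest on about 7.0 to 28.5 reads, so the ratio of means is imprecise. The log2 difference was 1.57 with a 95% interval from 0.76 to 2.39 (limma adjusted p = 0.110). Without KO 2 it was 1.94 and Axl was called (limma adjusted p = 0.0107). Leaving out KO 2 also raised the number of genes called higher from 46 to 92. Without any other single library Axl was not called (limma adjusted p of 0.162 to 0.268).

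The summed level of macrophage markers had the same order as Axl among the KO libraries, though not every marker did. Axl is known to be expressed by Kupffer cells, the resident macrophages of the liver. The 3 tested genes nearest to Axl over the libraries, a search added after the values were seen, were Vsig4, Csf1r and Cd5l, all on the macrophage list (distances 0.102, 0.129 and 0.137). Over all 13 macrophage markers, with no minimum, the KO mean was the higher one for 13, and 10 lay above every WT library in every KO library, against 3.57% of the 27571 genes above 0 in any library. With the minimum 10 were tested, 5 of which reached it only through KO, and 0 were called by limma. Their summed level was 6.56, 8.27, 12.02 and 14.7 FPKM across the WT libraries and 88.9, 20.4, 153 and 112 FPKM across the KO libraries. KO 2 was the lowest and KO 3 the highest KO library in both measures, while Adgre1, Cd68, Marco and Timd4 were highest in KO 4. Ccr2, a marker of recruited monocytes, was listed at 0 in all 4 WT libraries and in KO 2. Axl amounted to 1.29 to 3.67% of the macrophage sum in WT and to 2.79 to 3.59% in KO, so relative to these markers the groups overlapped. The WT shares rest on about 7.0 to 28.5 reads of Axl and are imprecise. The part of macrophages in the level of Axl was not tested further. Lists of T and NK lymphocyte, B lymphocyte and neutrophil markers summed to at most 0.805 FPKM in any library. The neutrophil sum was nevertheless higher in each KO library (0.220 to 0.805 FPKM) than in any WT library (0 to 0.121 FPKM).

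**Figure D3:**
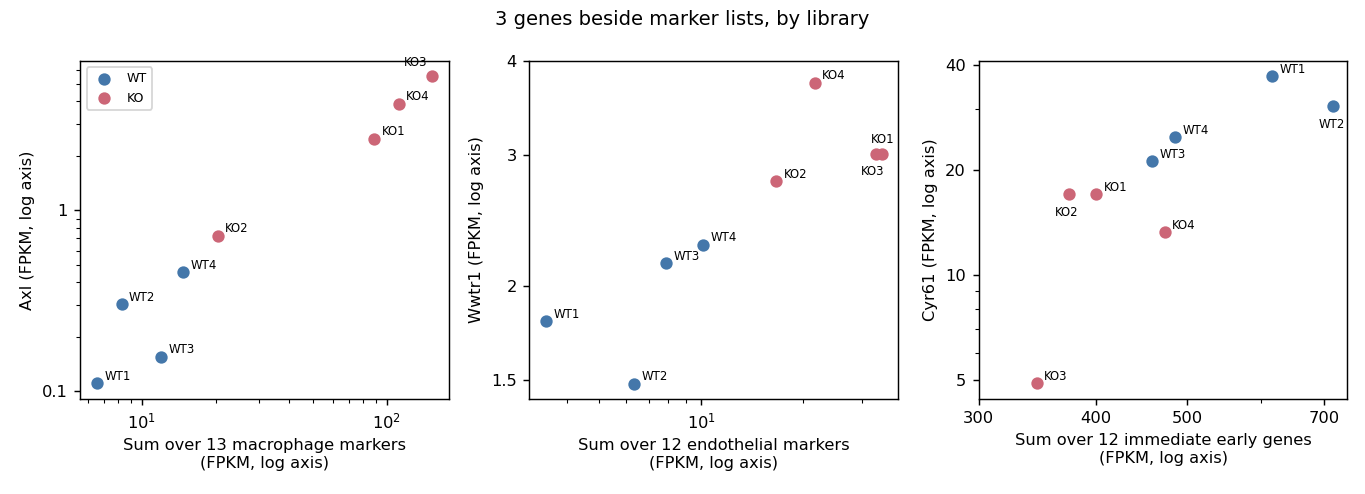
Each point is 1 library, and both axes are in FPKM on log scales: Axl beside the sum of 13 macrophage markers, Wwtr1 beside the sum of 12 endothelial markers, and Cyr61 beside the sum of 12 immediate early genes. Axl lay lowest in WT 1 and highest in KO 3, as did the macrophage sum, and Cyr61 and the immediate early sum were both lowest in KO 3.

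The wider pathway was described with 5 lists of other genes, 83 in all, of which 78 were in the table and 46 were tested. Fat1 fell, and no other gene of these lists was called by limma: 0 were higher (0.408% of all tested genes) and 1 lower (0.355% of all tested genes). An unadjusted p under 0.05 was found for 6 of 46 (13%, against 9.81% of all tested genes), 3 higher and 3 lower. Of the 3 higher genes (Nf2, Spp1 and Myc), Spp1 and Myc reached the minimum only through KO, so the count partly follows from the minimum. Groups without overlap were found for 8.7% of the 46, 1 gene above and 3 below, against 6.23% of all tested genes. The median difference was 0.02 on the log2 scale, against -0.03 over all tested genes. Fat1, an atypical cadherin gene and upstream regulator of the pathway, measured 3.58, 3.83, 4.92 and 4.004 FPKM across the WT libraries and 1.51, 0.923, 1.23 and 1.08 FPKM across the KO libraries. Every KO library lay far below every WT library. The means were 4.08 ± 0.582 and 1.19 ± 0.249 FPKM (SD, n = 4 each), with a log2 difference of -1.22 (limma adjusted p = 0.0142). The limma adjusted p was 0.0552 without KO 3, 0.0509 without KO 4 and 0.0513 without WT 4 and KO 2 together. With the replicate number as a block, the limma adjusted p of Fat1 was 0.0876.

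The listed kinases and scaffolds of the pathway, which reach beyond its core, had differences of both signs. Of 17 tested, 9 had a positive and 8 a negative difference (median 0.07), and 0 were called by limma. Stk4 and Map4k4, both positive, reached the minimum only through KO, so the count partly follows from the minimum. Nf2, the gene of the scaffold Merlin that activates the kinases, was at 1.31 to 1.72 FPKM in WT and at 4.56, 1.25, 6.42 and 7.51 FPKM across the KO libraries. KO 2 lay below every WT library and the other KO libraries well above (log2 difference 1.08, limma adjusted p = 0.330, and 0.0143 without KO 2). Without any other single library Nf2 was not called (limma adjusted p of 0.398 to 0.619). Map4k2 and Map4k4, kinases that also act on LATS, were at 1.22 and 0.547 FPKM in WT and at 2.27 and 1.51 FPKM in KO (limma adjusted p = 0.717 and 0.775). The mean of Map4k4 in KO rested on KO 1, at 4.19 FPKM against 0.569 to 0.716 FPKM in the other KO libraries.

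Junction, polarity and STRIPAK regulators included 16 tested genes, 8 positive and 8 negative, with Fat1 the gene called. Dlg1, a polarity scaffold gene, ranged from 3.54 to 20.8 FPKM in WT and from 1.85 to 11.1 FPKM in KO, and Strn4, a striatin gene, from 1.66 to 5.35 and from 2.21 to 8.30 FPKM. For both genes the groups overlapped, and neither was called (limma adjusted p = 0.768 and 0.656).

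Further targets had differences in both directions, and none passed the test. Of 5 pan-tissue targets tested, Nt5e, the gene of the ecto-nucleotidase CD73, lay lower in every KO library, with 9.37, 5.74, 7.68 and 15.3 FPKM across the WT libraries and 3.32, 3.16, 1.82 and 5.18 FPKM across the KO libraries (log2 difference -1.25, limma adjusted p = 0.141). For Nuak2 the limma adjusted p was 0.754, with 1.35 ± 0.340 FPKM over WT and 0.965 ± 0.195 FPKM over KO (SD, n = 4 each). For Gadd45a, a DNA damage response gene, it was 0.894, with 14.5 ± 9.89 and 16.9 ± 8.05 FPKM. Gadd45a was at 1.45 FPKM in WT 4 against 12.3 FPKM or more in the other WT libraries.

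Of 6 liver targets tested, Cdh1, the gene of E-cadherin, lay lower in every KO library, with 9.36, 5.90, 7.46 and 8.996 FPKM across the WT libraries and 2.57, 0.273, 4.28 and 0.643 FPKM across the KO libraries (log2 difference -1.82, limma adjusted p = 0.109). Spp1, the gene of the secreted protein osteopontin, was at 0.658 FPKM or less in WT and at 5.999, 0.512, 6.72 and 1.43 FPKM across the KO libraries, overlapping through KO 2 (limma adjusted p = 0.235). Myc lay at 0.232 to 0.689 FPKM in WT and at 5.20, 0.705, 0.932 and 1.35 FPKM across the KO libraries (limma adjusted p = 0.491). Its groups were separated by the gap between 0.689 and 0.705 FPKM.

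**Figure D4:**
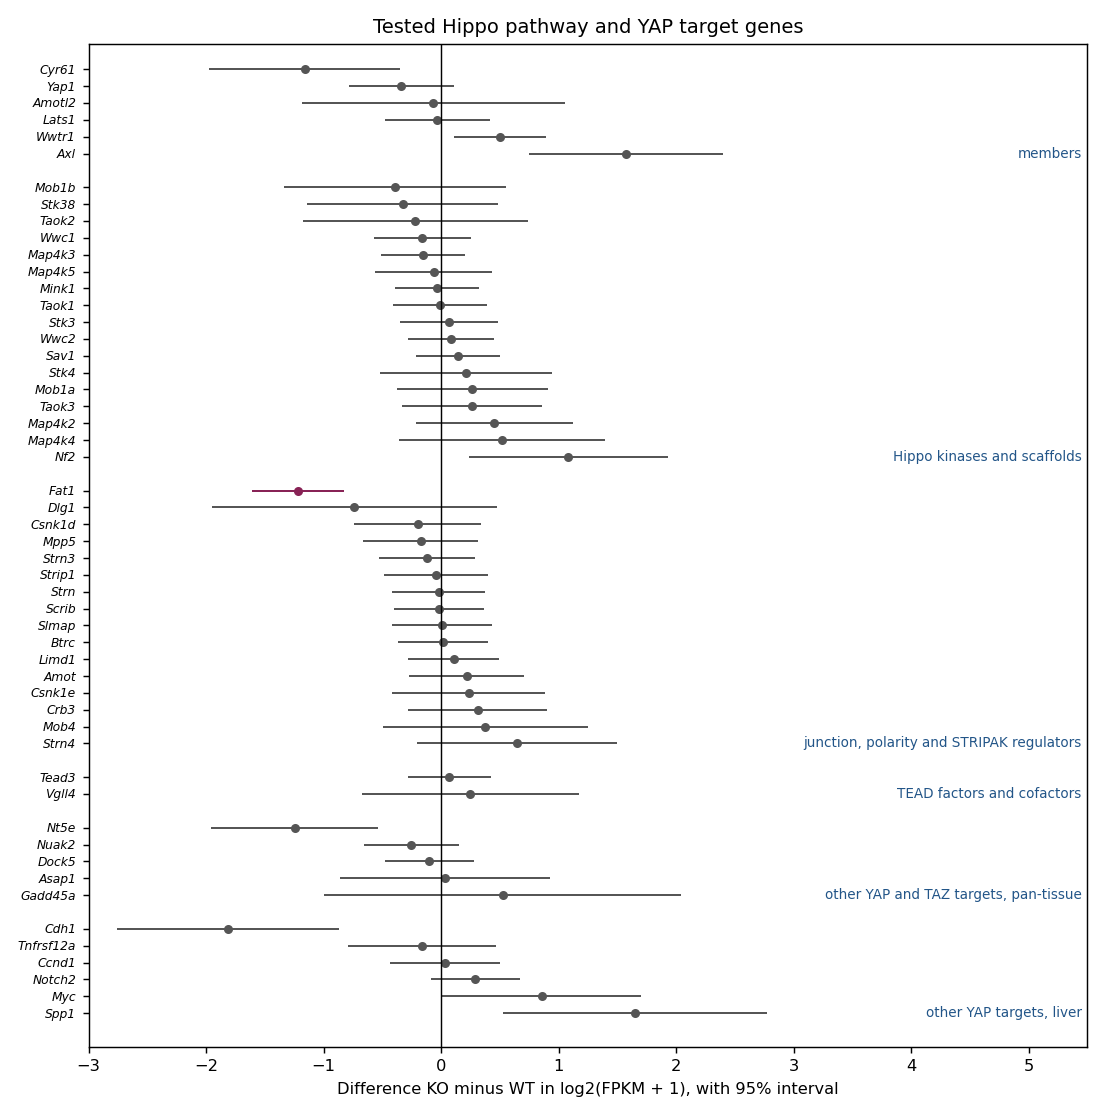
Difference between KO and WT in log2(FPKM + 1) with its 95% interval for the 6 tested genes of the main list (members, top) and the 46 tested genes of the 5 wider lists. The point in colour, Fat1, is the gene with a limma adjusted p under 0.05.

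Among the 32 genes of these lists that were not tested, 2 were listed at 0 in every library. After the values were seen, 9 of the others were noted to have groups without overlap, against 5.83% of the 16305 untested genes above 0 in any library (3.92% above and 1.91% below). The 5 that lay higher in KO were Amotl1, an angiomotin gene, and the targets Myof, Igfbp3, Arhgef17 and Rbms3. Igfbp3 reached 1.95 FPKM in KO 1, and the others stayed under 0.7 FPKM. The 4 that lay lower in KO were the kinase genes Tnik and Stk38l and the targets Sox9 and Jag1, which are biliary and Notch pathway genes. Sox9 measured 0.134, 0.177, 0.462 and 0.420 FPKM across the WT libraries and 0.123, 0.0157, 0.0526 and 0.0317 FPKM across the KO libraries, levels at which few reads decide the value.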

How the data were processed

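The members and the gene lists were chosen with earlier results of these data known. Per the labels, Trizol and a Qiagen kit gave the RNA and Nugen reagents the libraries. Values are FPKM as deposited by the authors in a single table, whose columns were matched to samples by name. The submitters' processing notes name mm10, TopHat and edgeR. The sources used here do not give the role of each tool, the annotation or the use of strand. Since FPKM is relative to library size, a shift in a few abundant transcripts moves all other values: from 40.9 to 50.4% of the summed FPKM of a library lay in 10 genes.

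Values were taken as log2(FPKM + 1) for genes with a mean of at least 1 FPKM and compared with limma 3.58.1 (R 4.3.3), with a variance trend, two-sided, Benjamini-Hochberg threshold 0.05. A fold change on this scale understates that of low genes. The fit was tested on simulated data. Coordinates are GENCODE M21 (GRCm38, equal to mm10), which held 99.4% of gene IDs. Depth was estimated from 12059 single-transcript genes of at least 400 nt. The text names the 10 genes, Arid1a, the genes of each wider list that passed, filled to the 3 smallest p, and the 3 genes nearest to Yap1 and to Wwtr1. Alternatives were other pseudocounts, filters and scalings, no trend, the replicate number as a block, and libraries left out.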

Additional observations from a re-analysis of the deposited data

Results flagged for a closer look

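Of 48 groups of 4 libraries examined, 1 for each of the 10 genes and of the 14 named list genes in WT and in KO, 3 had 1 library far from the other 3, where chance flags about 1 in 20 groups. Ankrd1 was at 0.204 FPKM in KO 3 and at 0 in the other KO libraries. Map4k4 was at 4.19 FPKM and Myc at 5.20 FPKM in KO 1, with the other KO libraries at 0.569 to 0.716 and 0.705 to 1.35 FPKM.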

How the results depend on the processing

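With a pseudocount of 5 FPKM 27 genes were called higher in KO, with no filter 26 were called lower, and with a minimum of 5 FPKM 14 were higher and 13 lower, in place of 46 and 40. Without WT 4 and KO 2 together 75 were higher, 1 of the 10 genes was called higher (Axl, log2 difference 2.02), 1 wider pathway gene was called higher (Nf2) and 0 lower. Fat1 was not tested with the minimum of 5 FPKM, leaving 0 pathway genes lower. Leaving out 1 library gave 20 to 92 genes higher and 14 to 44 lower, 0 to 1 of the 10 genes higher and 0 lower, and 0 to 1 pathway genes higher and 0 to 1 lower. With the replicate block 16 genes were higher, 8 lower and 0 pathway genes lower (Fat1, limma adjusted p = 0.0876). The labels do not say whether the numbers pair the libraries. Deviations of same-numbered libraries correlated at 0.096, -0.067, 0.015 and 0.25. With their own number, 3 of 4 WT but 1 of 4 KO libraries correlated best. These values do not decide whether the libraries were paired. Yap1, Wwtr1, Cyr61 and Axl kept their sign in all alternatives that tested them, with log2 differences of -0.44 to -0.20, 0.23 to 0.68, -1.38 to -0.79 and 0.60 to 2.98. With 1 library left out, Lats1 ran from -0.128 to 0.0591, Amotl2 from -0.355 to 0.27, Vgll4 from -0.0817 to 0.55 and Gadd45a from -0.221 to 0.867. Amotl2 turned to 0.06, 0.27, 0.18 and 0.17 without WT 1, WT 4, KO 1 and KO 3. Lats1 turned to 0.010, 0.0591 and 0.0557 without WT 3, WT 4 and KO 1. Vgll4 turned to -0.0817 and Gadd45a to -0.22 without WT 4, and without WT 4 and KO 2 together Lats1 was at 0.0548, Vgll4 at -0.14 and Gadd45a at -0.28. The cause was not tested. Depth limits Ctgf, Ankrd1, Sox9 and other genes under 1 FPKM.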
